A study of Mus musculus with 16 samples.

Results

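The erythroid genes Hba-a1, Hbb-b1, Alas2 and Slc4a1 were followed in mouse colon, as 4 of the 24543 genes measured. They were taken as the probes whose gene name in the scanner files equals one of the 4 symbols, which gave 1 probe for each gene, 4 of 55681 probes in all. The 4 symbols had been chosen by their log2 intensities on these same arrays, which earlier results showed to differ between the groups. Their group differences are therefore given as descriptions, with standard errors and no test.

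Non-tumour colon was collected at day 28 in 16 mice, all ApcMin/+, a genotype in which 1 copy of the tumour suppressor gene Apc is inactive and intestinal tumours form. The 5-ASA group had 6 mice that received dextran sulphate sodium (DSS, a detergent-like polysaccharide that injures the colon lining) at 1.5% w/v over 3 days, and 5-aminosalicylic acid (5-ASA, an anti-inflammatory drug used in colitis). The Control group had 6 mice with the same DSS course and no drug, and the Sham group had 4 mice given water alone. The labels differ on the dosing: one text has drug or saline given into the colorectum over 28 days, and another has the drug dissolved in what the 5-ASA mice drank during 25 days that followed DSS, with Control mice on plain water. Age, sex and background strain were not in the labels used here. The labels call the mice biological replicates, and each was hybridised to 1 array.

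Red blood cells carry haemoglobin, which is built from alpha and beta globin chains with a heme group in each. Immature red cells, the reticulocytes, still hold globin messenger RNA after the nucleus is lost, so bulk RNA of a tissue that holds blood can contain it. Alas2 is the erythroid form of the first enzyme of heme synthesis, and Slc4a1 is band 3, the chloride and bicarbonate exchanger of the red cell membrane. GATA1 and KLF1 are the transcription factors best known for switching these genes on in red cell precursors. In bulk tissue, fewer cells of a type and less RNA per cell cannot be told apart.

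Probe sequences are shown because each array value belongs to a short stretch of transcript, and the globin genes are close copies of each other. The Hba-a1 probe lies at chr11:32183955-32184014 (+) and the Alas2 probe at chrX:147004993-147005052 (+) in mm9, as the scanner files give them. The stop codon of Alas2 is in capitals.
Hba-a1 probe: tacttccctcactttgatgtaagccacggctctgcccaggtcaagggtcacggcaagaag
Alas2 probe: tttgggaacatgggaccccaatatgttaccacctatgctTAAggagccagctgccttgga
The Slc4a1 probe lies at chr11:102210256-102210315 (-) in mm9.

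The Hba-a1 probe carries the accessions of both Hba-a1 and Hba-a2, so its value cannot be assigned to 1 of these 2 alpha globin genes. The Hbb-b1 probe, at chr7:110976379-110976438 (-) in mm9, carries the accessions of Hbb-b1 and Hbb-bs, the beta globin genes of different mouse strains. Its first 30 bases match Hbb-bs in RefSeq (GRCm38.p6) with 0 mismatches, and differ from Hbb-bt, the neighbouring beta globin gene, at 6 of 30 bases. The rest of the probe was not compared with Hbb-bt, so how well the whole probe separates the 2 genes is not shown. The differing bases are in capitals. The Hbb-bt stretch is at chr7:103813889-103813918 (-) in GRCm38.p6.
Hbb-b1 probe, first bases: tttgcttctgaCATAgttgtgttgactCAc
Hbb-bt, same stretch: tttgcttctgaTTCTgttgtgttgactTGc

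The Hba-a1, Hbb-b1 and Alas2 probes were highest in the same mice, Control 1, Control 5 and Sham 1. For that reason the 250 bases before the start of Hba-a1, Hbb-bs (which shares the Hbb-b1 probe) and Alas2 are shown. They come from RefSeq (GRCm38.p6), at chr11:32283422-32283671 (+), chr7:103827929-103828178 (-) and chrX:150547167-150547416 (+). Capitals mark the word AGATAA, also with T as its first or G as its last base, which GATA factors can bind, and CCNCNCCC, the CACCC box, each on either strand.
Hba-a1 promoter: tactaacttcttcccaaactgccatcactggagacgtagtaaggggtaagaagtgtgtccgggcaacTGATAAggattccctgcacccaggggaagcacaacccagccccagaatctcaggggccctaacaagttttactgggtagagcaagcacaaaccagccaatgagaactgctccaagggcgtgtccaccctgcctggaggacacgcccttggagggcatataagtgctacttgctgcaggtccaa
Hbb-bs promoter: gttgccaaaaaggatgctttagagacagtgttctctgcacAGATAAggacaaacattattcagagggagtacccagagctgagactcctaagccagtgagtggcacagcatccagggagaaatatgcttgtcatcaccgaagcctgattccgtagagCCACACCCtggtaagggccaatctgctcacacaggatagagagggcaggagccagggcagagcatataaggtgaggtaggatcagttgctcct
Alas2 promoter: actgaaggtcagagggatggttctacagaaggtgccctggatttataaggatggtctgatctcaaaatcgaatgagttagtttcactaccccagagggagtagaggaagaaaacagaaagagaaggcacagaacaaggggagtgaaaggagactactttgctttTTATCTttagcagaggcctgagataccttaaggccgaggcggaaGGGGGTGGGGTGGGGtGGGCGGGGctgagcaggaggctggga
Each of these 3 promoters held 1 GATA word, and so did that of Hba-a2, while that of Hbb-bt held 0. The word was found in 26.5% of the 32851 promoters of the same length. It began 183 bases before the start of Hba-a1, 210 before Hbb-bs and 86 before Alas2. The CACCC box occurred 1 time in Hbb-bs, 1 time in Hbb-bt and 4 times in Alas2, where 3 of the matches overlap. It was found in 45.9% of promoters, with both words in 8.19%. These matches describe the letters of the window and say nothing of binding in these samples.

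The 4 genes were measured well on these arrays. Values below are log2 intensity relative to the 75th percentile of each array, a scale on which levels of different probes are not compared. Hba-a1, Hbb-b1 and Alas2 were well above background on all 16 arrays, and so was Slc4a1 except in 2 of the 6 5-ASA mice. All 4 passed the filter on dim probes, which asked for signal well above background on at least 4 arrays, and 0 spots were saturated, the brightest member spot being Hba-a1 in Control 1. All 10 measured genes of the colon epithelium list, among them Epcam, Vil1 and Krt20, were well above background on every array. The arrays lay in 2 rows of 2 slides. The first row held Control 1, 2, 4 and 5 and all 4 Sham mice, with 59.8% to 65.2% of spots well above background. All 6 5-ASA mice were in the second row with Control 3 and 6, where the share was 53.0% to 57.7%. 5-ASA and Sham never shared a row, so drug and row cannot be told apart in a comparison of those groups.

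The alpha globin probe was lowest on average in the 5-ASA mice and highest in the Control mice. Hba-a1 had a lowest value of 3.40, a median of 4.01 and a highest value of 4.71 in 5-ASA mice. In Control mice it had a lowest value of 4.26, a median of 4.84 and a highest value of 7.68. In Sham mice 1 to 4 it was at 5.05, 4.63, 4.32 and 4.44. The high Control values were those of Control 1 (7.68) and Control 5 (6.53), both above the highest Sham mouse, while the other 4 Control mice lay between 4.26 and 4.85, inside or below the range of Sham. Of the 6 5-ASA mice, 4 lay below the lowest Control mouse and the same number below the lowest Sham mouse. The means were 4.05 ± 0.53 (SD, n = 6) in 5-ASA, 5.47 ± 1.33 (n = 6) in Control and 4.61 ± 0.32 (n = 4) in Sham. The difference was -1.42 (SE 0.49) for 5-ASA minus Control, 0.87 (SE 0.54) for Control minus Sham and -0.56 (SE 0.54) for 5-ASA minus Sham. On a linear scale Hba-a1 was 2.68-fold lower in 5-ASA than in Control, and 1.82-fold higher in Control than in Sham.

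The beta globin probe had the same 3 highest mice, Control 1, Control 5 and Sham 1, and the same lowest mouse, 5-ASA 3. Hbb-b1 ran between -1.06 and 0.69 with a median of -0.45 in 5-ASA mice. It ran between 0.22 and 3.65 with a median of 0.63 in Control mice, and was at 0.94, 0.53, -0.15 and -0.06 in Sham mice 1 to 4. Control 1 (3.65) and Control 5 (2.18) were again the only mice above Sham 1. 5-ASA 4 and 5-ASA 5, at 0.69 and 0.45, overlapped with the other Control mice, at 0.22 to 0.80. Group means were -0.24 ± 0.68 in 5-ASA, 1.26 ± 1.38 in Control and 0.32 ± 0.52 in Sham (SD, n = 6, 6 and 4). The difference was -1.49 (SE 0.53, 2.82-fold lower) for 5-ASA minus Control, 0.94 (SE 0.60, 1.92-fold higher) for Control minus Sham, and -0.55 (SE 0.60) for 5-ASA minus Sham.

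Alas2, the heme synthesis enzyme, spanned the widest range of the 4 genes over all mice, 5.67 on the log2 scale. It ran between -2.99 and -0.87 with a median of -1.98 in 5-ASA mice, and between -1.01 and 2.68 with a median of -0.71 in Control mice. In Sham mice 1 to 4 it was at -0.29, -1.42, -1.87 and -1.45. Control 1 (2.68) and Control 5 (0.91) lay above every Sham and every 5-ASA mouse, and Sham 1 was the third highest of 16. Of the 6 5-ASA mice, 5 lay below the lowest Control mouse, and 5-ASA 4 at -0.87 lay inside the Control range. The means were -1.93 ± 0.81 in 5-ASA, 0.03 ± 1.49 in Control and -1.25 ± 0.68 in Sham (SD, n = 6, 6 and 4). Alas2 differed by -1.96 (SE 0.59, 3.89-fold lower) for 5-ASA minus Control, by 1.28 (SE 0.66, 2.43-fold higher) for Control minus Sham, and by -0.68 (SE 0.66) for 5-ASA minus Sham.

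Slc4a1, the anion exchanger, did not follow the other 3 genes in every mouse. It ran between -4.90 and -3.26 with a median of -4.17 in 5-ASA mice, and between -3.66 and 0.16 with a median of -2.46 in Control mice. In Sham mice 1 to 4 it was at -2.39, -4.04, -4.08 and -3.98. Control 1 was highest, but Control 5 at -2.46 was only the fifth of 16, level with Control 3 (-2.45) and Control 4 (-2.49). Sham 1 stood 1.59 above the next Sham mouse. Of the 6 Control mice, 5 lay above the highest 5-ASA mouse, and 5 of 6 5-ASA mice lay below the lowest Control mouse, Control 6. Means were -4.13 ± 0.60 in 5-ASA, -2.17 ± 1.26 in Control and -3.62 ± 0.82 in Sham (SD, n = 6, 6 and 4). The difference was -1.97 (SE 0.51, 3.91-fold lower) for 5-ASA minus Control, 1.46 (SE 0.57, 2.74-fold higher) for Control minus Sham, and -0.51 (SE 0.57) for 5-ASA minus Sham. Slc4a1 was not well above background in 2 of the 6 5-ASA mice, and with another background correction (normexp) its difference was -1.22 for 5-ASA minus Control and 1.02 for Control minus Sham.

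**Figure D1:**
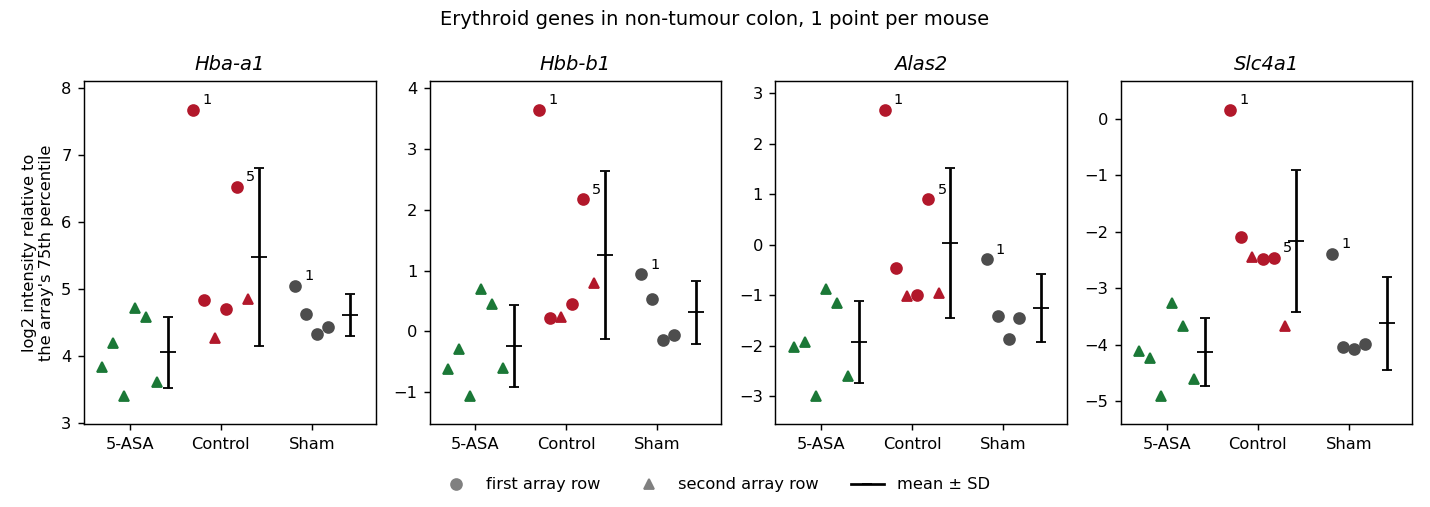
Log2 intensity relative to the array's 75th percentile (vertical axes, each with its own range) of the 4 erythroid genes in 5-ASA, Control and Sham mice, with 1 point per mouse, circles for the first array row, triangles for the second, and bars for the mean ± SD. The mice numbered 1 and 5 in Control and 1 in Sham are marked, and Control 1 is the highest point of every panel, at 7.68, 3.65, 2.68 and 0.16.

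In none of the 4 genes were 2 groups fully apart. For comparison, 0.110% of all 24543 genes had every 5-ASA mouse below every Control mouse and 0.0244% had every one above. Every Control mouse lay above every Sham mouse in 2.62% of genes, and below in 0.697%. Every 5-ASA mouse lay above every Sham mouse in 0.994% of genes, and below in 0.807%. The 2 comparisons share the Control mice, so the lower values in 5-ASA and the higher values in Control are not separate observations. 5-ASA 3 was the lowest of 16 in all 4 genes, and 5-ASA 4 was the highest of its group in each.

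Single mice set much of the size of these differences. Without Control 1, 5-ASA minus Control came to -0.98 for Hba-a1, -1.02 for Hbb-b1, -1.43 for Alas2 and -1.50 for Slc4a1. Control minus Sham came to 0.42, 0.46, 0.75 and 0.99 for the same genes in that order. The direction was the same and the size smaller in each gene. Without Control 1 and Control 5, a choice made after the values were seen, 5-ASA minus Control was -0.61, -0.66, -1.08 and -1.46, and Control minus Sham was 0.05, 0.11, 0.40 and 0.95. Control minus Sham was then within its standard error for Hba-a1, Hbb-b1 and Alas2, and Slc4a1 kept most of its difference.

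The position of the arrays moved with the same comparison. Within the second array row, where the 6 5-ASA mice stood against Control 3 and 6, the difference was -0.50 for Hba-a1, -0.76 for Hbb-b1, -0.95 for Alas2 and -1.07 for Slc4a1. Within the first row, Control 1, 2, 4 and 5 differed from Sham by 1.32, 1.31, 1.79 and 1.90. Every direction was that of the comparison over all mice, while 5-ASA against Control was smaller within its row. With array row as a covariate, 5-ASA minus Sham turned to 0.82, 0.55, 0.84 and 0.83, with standard errors of 0.82 to 1.03, so its direction changed with the row in the fit. On slide 1, 5-ASA minus Sham was -1.03, -1.39, -1.47 and -1.20, and on slide 2 it was -0.08, 0.29, 0.11 and 0.18, above 0 in all but Hba-a1. On slide 1, 5-ASA minus Control was -1.78, -2.02, -2.72 and -2.95, and on slide 2 it was -1.06, -0.96, -1.20 and -0.98. Slide 1 holds Control 1. Control minus Sham was 0.75, 0.63, 1.25 and 1.75 on slide 1, and 0.98, 1.25, 1.31 and 1.16 on slide 2. The part of position in these differences was not tested further.

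**Figure D2:**
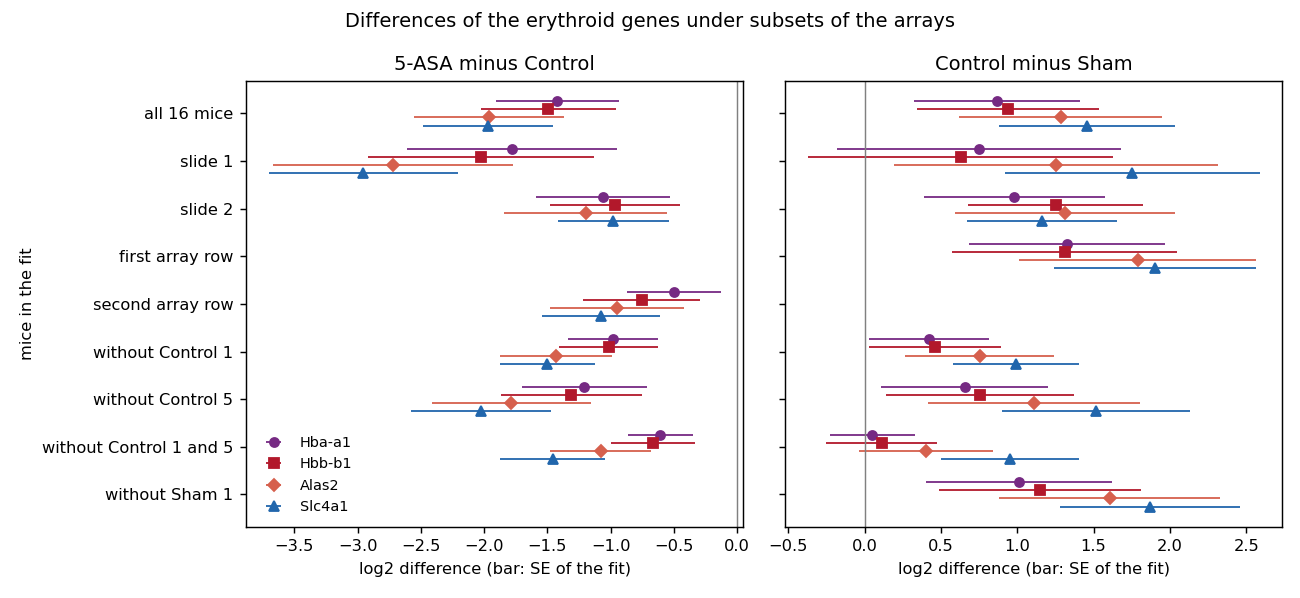
Log2 difference with its SE (horizontal axes) of the 4 erythroid genes for 5-ASA minus Control and Control minus Sham, over all mice and over the subsets named at the left. All points for 5-ASA minus Control lie below 0 and all points for Control minus Sham lie above it, with the values nearest 0 for Control minus Sham without Control 1 and 5 (0.05 for Hba-a1).

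Hbb-b1 was set against each of the other 3 genes within the 5-ASA and within the Control mice, the groups with 6 mice. The 4 genes were chosen from these same values, so the correlations are descriptions with no test. Among the 6 5-ASA mice, Hbb-b1 correlated with Hba-a1 at Pearson r = 0.98 (Spearman rho = 0.94), with Alas2 at r = 0.97 (rho = 0.94) and with Slc4a1 at r = 0.95 (rho = 0.83). Without 5-ASA 4 and 5-ASA 5, the mice farthest from the median, r was 0.92 with Hba-a1, 0.87 with Alas2 and 0.78 with Slc4a1 over the other 4 mice.

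Among the 6 Control mice the relation rested on Control 1 and Control 5, and the rank order of Slc4a1 did not follow that of Hbb-b1. Hbb-b1 correlated with Hba-a1 at r = 0.99 (rho = 0.83), with Alas2 at r = 0.97 (rho = 0.66) and with Slc4a1 at r = 0.74 (rho = 0.03). Without Control 1 and 5, r was 0.50 with Hba-a1, -0.43 with Alas2 and -0.95 with Slc4a1, over 4 mice. The positive relation did not hold with Alas2 and Slc4a1 without those mice.

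The diarrhea score at day 28, which did not enter the choice of genes, was 0 or 0.5 in 5-ASA mice, between 0.5 and 1.5 in Control mice and 0 or 0.5 in Sham mice. Control 1, 2 and 5 had a score of 0.5, Control 4 and 6 a score of 1, and Control 3 a score of 1.5. The highest erythroid values were thus in mice with the lowest Control score. Control 3 and 6 were also the only Control mice in the second array row. Mean Alas2 was -0.98 in those mice and 0.53 in the first-row Control mice. Of the first-row Control mice only Control 4 had a score above 0.5, so score and row cannot be told apart here. Over the 6 Control mice the score correlated with Alas2 at r = -0.67 (rho = -0.93, exact two-sided permutation p = 0.0833 and 0.0333, adjusted p = 0.200 and 0.133 over 4 relations). For Hba-a1 it was r = -0.71 (rho = -0.77, exact permutation p = 0.1 and 0.1, adjusted p = 0.200 and 0.200). For Hbb-b1 it was r = -0.58 (rho = -0.37, exact permutation p = 0.250 and 0.467, adjusted p = 0.333 and 0.467), and for Slc4a1 r = -0.47 (rho = -0.49, exact permutation p = 0.333 and 0.300, adjusted p = 0.333 and 0.400). None of the 4 relations passed after adjustment, and the smallest p the tied scores allow is 0.0167. Control 3 was the mouse farthest from the median score and the other 5 tied. Without Control 3 and each of those 5 in turn, a range taken after the tie was seen, r ran from -0.94 to -0.54 for Hba-a1, -0.91 to -0.37 for Hbb-b1, -0.91 to -0.61 for Alas2 and -0.76 to -0.41 for Slc4a1.

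The genes most like the 4 over the 16 arrays were other globins. Likeness was the Pearson r with the mean of the 4 genes' log2 values, each taken relative to its own mean, and is a description over arrays that share the high mice. The adult globins Hbb-bt (r = 0.99), Hbb-b2 (0.99) and Hba-a2 (0.98) came first, ahead of the palmitoyltransferase family gene Zdhhc22 (0.94). Of the 10 most like genes, the platelet surface receptor gene Treml1 (0.93), the array's own transcript NAP026524-1 (0.92), Apol11b (0.91), the ubiquitin enzyme gene Ube2o (0.89) and B230206H07Rik (0.88) followed. Ube2o tags unused proteins for removal as reticulocytes mature. Apol11b was well above background in 0 of 6 5-ASA mice, 4 of 6 Control mice and 1 of 4 Sham mice. It needed its Control arrays to pass the filter on dim probes, so its likeness is no support. NAP026524-1 was well above background in 3 of 6 5-ASA mice. Over all genes the median r was 0.04, and 42 of 24543 genes (0.171%), the 4 members included, had r above 0.7. Among the globins, Hbb-b2 and Hba-a2 are not independent of the 4, as their probes share transcripts with those of members.

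**Figure D3:**
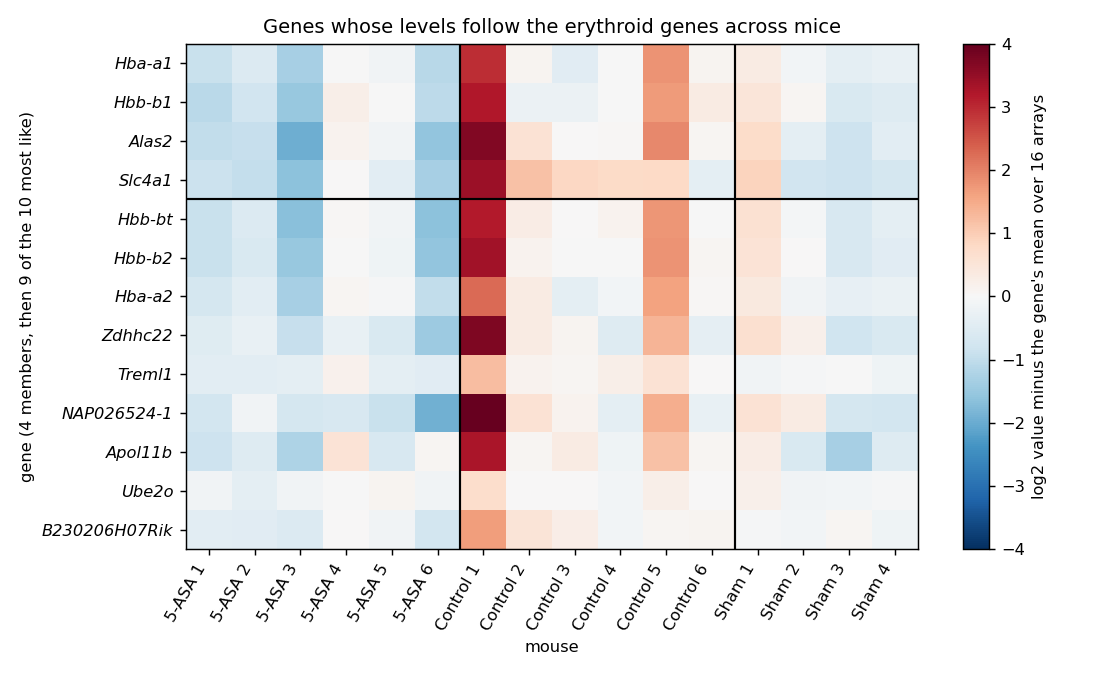
Log2 value minus the gene's mean over 16 arrays (colour) for the 4 erythroid genes (upper rows) and 9 of the 10 genes most like them (lower rows), in 5-ASA, Control and Sham mice (columns). Control 1 and Control 5 carry the high values in most rows, and Hbb-bt reaches 7.37 in Control 1 on its own log2 scale.

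The other adult globins had the same high mice. The lowest mouse was 5-ASA 3 for Hbb-bt and Hba-a2, while for Hbb-b2 5-ASA 6 (0.56) lay below 5-ASA 3 (0.65). Hbb-bt, a beta globin, ran between 2.53 and 4.26 with a median of 3.48 in 5-ASA, and between 4.19 and 7.37 with a median of 4.43 in Control. It was at 4.82, 4.12, 3.56 and 3.82 in Sham mice 1 to 4. Only 5-ASA 4 lay inside the Control range. Its difference was -1.71 (SE 0.52) for 5-ASA minus Control and 1.02 (SE 0.58) for Control minus Sham, or -1.25 and 0.56 without Control 1, and -0.92 and 0.23 without Control 1 and 5. Hbb-b2, whose probe shares an accession with that of Hbb-b1 and is no independent gene here, differed by -1.69 (SE 0.54) and 1.04 (SE 0.60), and Hba-a2, an alpha globin whose probe shares its accessions with that of Hba-a1, by -1.20 (SE 0.41) and 0.71 (SE 0.46). By limma with Benjamini-Hochberg adjustment none of these 3 passed in 5-ASA minus Control (adjusted p = 0.999 each), and the values for Control minus Sham were adjusted p = 0.596 for Hbb-bt, 0.603 for Hbb-b2 and 0.643 for Hba-a2.

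The other genes of red cells were read beside the 4. Of 67 listed erythroid genes beside the 4, 52 were measured, 14 had a probe that did not pass the filter and 1, Hbb-bs, had no probe of that name. The lists were drawn up with earlier results of these arrays known. By limma 0 of 52 passed at an adjusted p of 0.05 in 5-ASA minus Control, where 0 of 24543 genes (0%) passed. At an unadjusted p under 0.05, 0 were higher and 9 (17.3%) lower in 5-ASA than in Control, against 1.36% higher and 2.72% lower over all genes. The 9 include Hba-a2 and Hbb-b2, which are not independent of the 4, and Trim10, which passed the filter through Control alone. Their share is therefore no separate support. In Control minus Sham 0 of 52 passed, against 14 of 24543 genes (0.0570%), and at an unadjusted p under 0.05 there were 5 higher (9.62%) and 1 lower, against 5.35% and 3.52% of all genes. In 5-ASA minus Sham 0 of 52 passed, again against 0.0570%, with 2 higher and 3 lower at an unadjusted p under 0.05, against 5.82% and 5.13%. The median difference of the 52 genes was -0.05 for 5-ASA minus Control (17 higher, 35 lower), 0.01 for Control minus Sham (27 higher, 25 lower) and -0.05 for 5-ASA minus Sham (19 higher, 33 lower). Over all genes each of these medians was -0.00. Likeness above 0.7 was found in 7 of the 52 genes, 3 of them globins, against 0.171% of all genes. Of those globins, Hba-a2 and Hbb-b2 are not independent of the 4. The mean of the 52 genes, each relative to its own mean, lay between -0.17 and -0.00 in 5-ASA, between -0.07 and 0.44 in Control and between -0.12 and 0.09 in Sham. It was highest in the same 3 mice as the globins, Control 1 (0.44), Control 5 (0.24) and Sham 1 (0.09). The 52 include the globins Hba-a2, Hbb-b2 and Hbb-bt, so this likeness to the globins is partly built in. Of the 52, Hbq1b and Trim10 were well above background in Control mice alone. They passed the filter through the group in which they are high, so their higher level there is no support for a difference.

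By role, the 6 measured genes of the other globin and chaperone list had a median difference of -0.76 for 5-ASA minus Control and 0.73 for Control minus Sham. Of these 6, Hba-a2 and Hbb-b2 are not independent of the members, and Hbq1b passed the filter through Control alone. The medians are therefore no separate support. Ahsp, the chaperone of free alpha globin, had a likeness of r = 0.64 to the 4 genes, and the embryonic beta globin Hbb-bh1 of r = -0.20. Hbq1b, a theta globin, was well above background in 0 of 6 5-ASA mice, 4 of 6 Control mice and 0 of 4 Sham mice, so that it was at least 1.47-fold higher in Control than in Sham, with no fold to give against 5-ASA. Here and below a bound sets the mean of the brighter group against the lowest signal counted as well above background on each array of the dimmer group, or the probe's own signal there if that was higher.

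Of the red cell membrane and skeleton list, 11 of 19 genes were measured, with median differences of 0.01 for 5-ASA minus Control and -0.07 for Control minus Sham. Epb41, protein 4.1, which ties the skeleton of the cell to its membrane, had r = 0.77 with the 4 genes and differences of -0.15 (SE 0.07) and 0.14 (SE 0.08). Gypc, glycophorin C, differed by 0.08 (SE 0.11) and -0.28 (SE 0.12). Tmod1, which caps actin filaments, differed by 1.23 (SE 0.58) and -0.57 (SE 0.61). Trim10, a gene named in mouse erythroid differentiation, was well above background in 0 of 6 5-ASA mice, 4 of 6 Control mice and 0 of 4 Sham mice. It was at least 1.06-fold higher in Control than in 5-ASA, and at least 1.59-fold higher in Control than in Sham. None of these genes passed the test. The 8 membrane genes that were not measured were near background. Among them Epb42, Rhd and Kel were well above background in Control 1 alone.

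All 12 genes of heme synthesis and mitochondrial iron were measured, with a median difference of -0.00 for 5-ASA minus Control (5 higher, 7 lower) and 0.13 for Control minus Sham (9 higher, 3 lower). Slc25a37, mitoferrin, which brings iron into the mitochondria of red cell precursors, had r = 0.77 with the 4 genes and differed by -0.26 (SE 0.09) and 0.07 (SE 0.11). Abcb10, a mitochondrial transporter, differed by -0.25 (SE 0.11) and 0.16 (SE 0.12). Alas1, the form of the heme enzyme used outside the red cell line, differed by -0.43 (SE 0.25) and 0.58 (SE 0.28), with r = 0.37. Cpox, a later enzyme of the pathway that all cells use, differed by 0.03 (SE 0.07) for 5-ASA minus Control and by 0.21 (SE 0.08) for Control minus Sham. None passed after adjustment over all genes.

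The transcription factors were the list least like the 4 genes among the erythroid lists. Of 12 listed, 10 were measured, with r between -0.14 and 0.23 and a median of 0.07. Gata1 was well above background on 2 arrays, 5-ASA 4 and Control 6, and Klf1 on none. 5-ASA 4 ranked between 5 and 7 of 16 in the 4 genes, and Control 6 between 4 and 8. The cofactor genes Zfpm1, Lmo2 and Ldb1 differed by -0.36 (SE 0.16), -0.32 (SE 0.26) and -0.04 (SE 0.12) for 5-ASA minus Control, and by -0.11 (SE 0.18), -0.45 (SE 0.29) and -0.18 (SE 0.13) for Control minus Sham. Gfi1b, a repressor used in red cell and platelet precursors, differed by -0.13 (SE 0.12) and -0.14 (SE 0.13), and Epor, the erythropoietin receptor, by -0.14 (SE 0.16) and -0.21 (SE 0.17). None passed the test.

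Of the 14 genes of reticulocyte maturation and metabolism, 13 were measured, with median differences of -0.14 for 5-ASA minus Control and 0.09 for Control minus Sham. Tfrc, the transferrin receptor, which every dividing cell uses for iron, differed by -1.08 (SE 0.39) for 5-ASA minus Control and 0.94 (SE 0.43) for Control minus Sham (limma adjusted p = 0.999 and 0.561). Its likeness was r = 0.51, and Control 1 at 3.79 was below the Control median of 4.20. Bpgm, which makes the phosphoglycerate that lowers the oxygen affinity of haemoglobin, differed by -0.17 (SE 0.10) and 0.35 (SE 0.11), Tent5c by -0.48 (SE 0.22) and 0.39 (SE 0.24), and Ube2o by -0.26 (SE 0.13) and 0.17 (SE 0.14). None passed after adjustment.

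**Figure D4:**
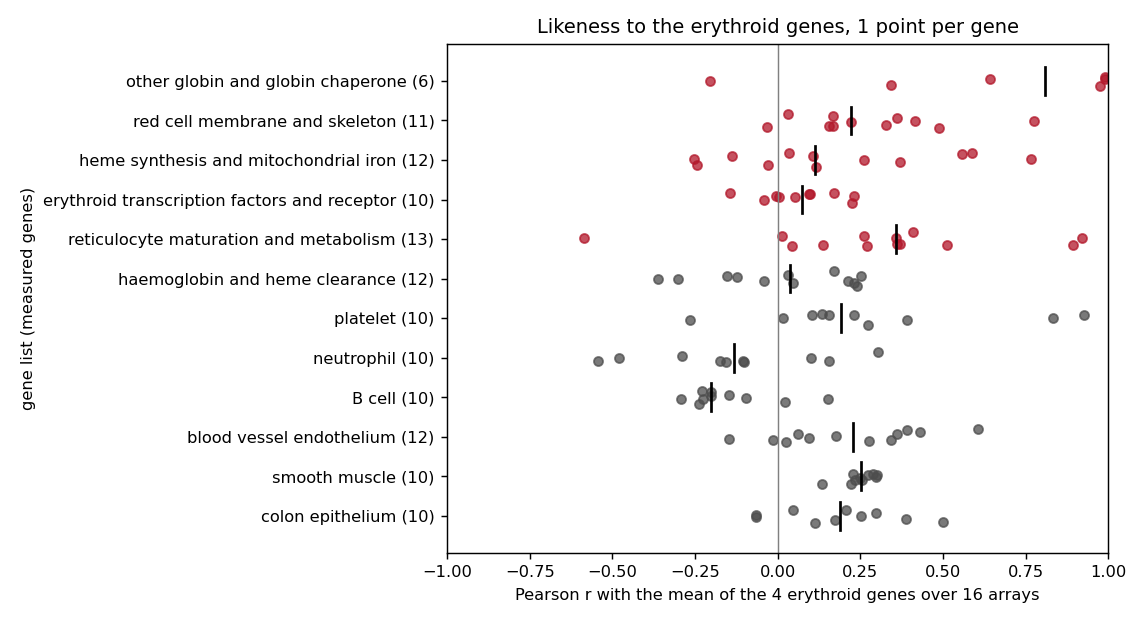
Pearson r over 16 arrays with the mean of the 4 erythroid genes (horizontal axis) for every measured gene of 12 lists, 1 point per gene, with black bars for the median of each list, erythroid lists in red and other lists in grey. The globin list has a median of 0.81, and the medians of the other lists lie between -0.20 and 0.36. The globin list includes Hba-a2 and Hbb-b2, which are not independent of the 4 genes.

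Markers of other cell types were read beside these values, and their part in them was not tested. The platelet list had 10 of 13 genes measured, with a median likeness of r = 0.19 and Treml1 (0.93) and the platelet chemokine Ppbp (0.83) above 0.7. The platelet list score, the mean of its genes relative to their means over arrays, was between -0.48 and 0.16 in 5-ASA, between -0.17 and 0.59 in Control and between -0.19 and 0.15 in Sham, with the highest value in Control 1. Ppbp was well above background in 0 of 6 5-ASA mice, 5 of 6 Control mice and 0 of 4 Sham mice, at least 2.94-fold higher in Control than in Sham (limma adjusted p = 0.0263) and at least 1.87-fold higher than in 5-ASA (adjusted p = 0.385). Ppbp also passed the filter on dim probes through Control alone, so a higher level there was needed for it to be tested, and the call is no support. It was lost under 15 of 24 alternatives, with adjusted p from 0.00882 to 0.967 over them.

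Genes of the haemoglobin and heme clearance list had a median r of 0.04, with 12 of 14 measured. Their score lay between -0.30 and 0.09 in 5-ASA, between -0.13 and 0.31 in Control and between -0.16 and 0.38 in Sham, and was at -0.13 in Control 1. Hmox1, heme oxygenase, differed by -0.30 (SE 0.15) for 5-ASA minus Control and 0.44 (SE 0.17) for Control minus Sham, and Hp, haptoglobin, by -1.25 (SE 0.54) and 0.74 (SE 0.60). Hmox1 was at -0.97 in Control 1 and -0.93 in Control 5, against a Control median of -0.63.

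The smooth muscle score was 0.77 in Control 1 and 0.90 in Sham 1, the 2 highest of 16, and -0.08 in Control 5. It lay between -0.01 and 0.46 in 5-ASA, between -1.24 and 0.77 in Control and between -0.45 and 0.90 in Sham. The B cell score was -1.40 in Control 1 and -1.78 in Sham 1, and lay between -1.42 and -0.38 in 5-ASA, between -1.40 and 2.66 in Control and between -1.78 and 2.65 in Sham. The neutrophil score was at -0.72 in Control 1 and -0.55 in Control 5, within a Control range up to 1.09. Blood vessel endothelium, with 12 of 12 genes measured, lay between -0.35 and 0.14 in 5-ASA, between -0.22 and 0.12 in Control and between -0.11 and 0.23 in Sham. The endothelial score was 0.23 in Sham 1, the highest of 16, 0.12 in Control 1, the highest Control mouse, and 0.07 in Control 5. The erythroid score was 0.61, 3.32 and 1.56 in those mice. The scores average different genes, so their sizes are not compared, and the part of vessel content was not tested.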

How the data were processed

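Each mouse's colon RNA was labelled with Cy3 and measured on its own 1-colour Agilent array. Agilent Feature Extraction 10.10.1.1 produced the deposited spot intensity, per the file headers, with background subtraction and a spatial detrend but no scaling across arrays. Mean spot intensity and the intensity around the spot are uncorrected, per the file headers, and the other columns used are deposited flags of 0 or 1 that mark a signal as well above background, saturated or outlying. The authors' value table holds log2 values. Its scale and centring are not stated and were worked out from the values: per array it matched log2 intensity less the 75th percentile, with each probe's Sham median subtracted (r from 0.992 to 0.998, interquartile range of the difference 0.0047). Its direction, high for bright spots, comes from the same match. Column medians of the authors' log2 table were 0.223, 0.177, 0.135, 0.136, 0.112 and 0.111 in 5-ASA mice (mouse 1 first), -0.0321, -0.0616, 0.206, -0.187, -0.0429 and 0.146 in Control mice, and -0.0009, -0.0459, 0.0704 and -0.0065 in Sham mice.

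Each array has 62976 spots, of which 59305 are not controls, for 55681 probes. Probes were named by RefSeq accession where the table held it (27656) and by the file's name otherwise (28025). Log2 intensity minus the array's 75th percentile was averaged over spots of a probe, probes well above background on at least 4 arrays were kept (35087), and the brightest probe stood for a gene, leaving 24543 genes. These were fitted in limma 3.58.1 (R 4.3.3) with 1 mean per group over 16 arrays, Benjamini-Hochberg adjustment over all genes and a threshold of 0.05. The fit was tested on simulated data. Correlations and list values were computed in Python 3.11.15.

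The members and the gene lists were chosen with earlier results of these data known. Named genes were the 4 members, the 10 genes most like them, and per list the 3 genes with the smallest unadjusted p in each of Control minus Sham and 5-ASA minus Control. Some genes chosen this way are not reported here. Of the listed names, Fam46c was read as Tent5c. Genes outside that rule (Ahsp, Hbb-bh1, Epb42, Rhd, Kel, Gata1 and Klf1) were named after their values were seen. Alternatives were normexp background correction with an offset of 50, quantile and median scaling, the authors' table, other filters and probe rules, spots outside the outer 12 rows, slide and array row, the replicate block, and leaving out mice. The number of arrays limits the precision.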

Additional observations from a re-analysis of the deposited data

Results flagged for a closer look

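Among 96 groups tested (32 genes named from the erythroid lists, the likeness rule or as members, in each of 3 groups), 6 held a mouse far from the rest of its group, where chance flags about 1 in 20. The count is close to that rate. Slc4a1, the red cell anion exchanger, was at -2.387 in Sham 1, with the next Sham mouse at -3.98. Alas1, the widely used heme synthesis enzyme, was at 6.113 in Sham 1, with the next Sham mouse at 5.064. Treml1, the platelet receptor gene, was at -3.918 in 5-ASA 4, with the next 5-ASA mouse at -4.482. B230206H07Rik, which was named for its likeness to the members, was at -2.221 in Control 1, with the next Control mouse at -3.353. Lmo2, a cofactor of red cell transcription factors, was at 1.236 in Control 4, with the next at 0.2701. Gfi1b, a repressor of red cell and platelet precursors, was at -2.892 in Control 6, with the next at -3.319. Control 1 and Control 5 were not far enough from each other for the globin probes to be picked out in this way.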

How the results depend on the processing

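The 4 members kept their direction in 5-ASA minus Control and in Control minus Sham under every alternative run, with values for 5-ASA minus Control from -1.78 to -0.50 for Hba-a1, -2.02 to -0.66 for Hbb-b1, -2.72 to -0.95 for Alas2 and -2.95 to -0.98 for Slc4a1. For Control minus Sham they ran from 0.05 to 1.32, 0.11 to 1.31, 0.40 to 1.79 and 0.95 to 1.90. Hba-a1 moved most with array row, to -0.50 within the second row and with row as a covariate, and Slc4a1 with slide, at -2.95 and -0.98. With row as a covariate 5-ASA minus Sham changed sign, at 0.82, 0.55, 0.84 and 0.83, and it was -1.03, -1.39, -1.47 and -1.20 on slide 1 and -0.08, 0.29, 0.11 and 0.18 on slide 2. The cause was not tested. Leaving out 1 mouse, 5-ASA minus Control ranged over -1.66 to -0.98 for Hba-a1, -1.70 to -1.02 for Hbb-b1, -2.17 to -1.43 for Alas2 and -2.26 to -1.50 for Slc4a1, Control minus Sham over 0.42 to 1.11, 0.46 to 1.15, 0.75 to 1.60 and 0.99 to 1.87, and 5-ASA minus Sham over -0.69 to -0.41, -0.74 to -0.35, -0.89 to -0.35 and -0.68 to -0.10. Counts over all genes moved more. Against 14 for Control minus Sham, 1 gene passed when probes had to be well above background on all arrays and 0 without the outer 12 spot rows (10 to 15 without 1 mouse). Against 14 for 5-ASA minus Sham, 3, 0 and, with array row as a covariate, 7 passed, and 11 to 26 without 1 mouse, 26 being without 5-ASA 4. Against 0 for 5-ASA minus Control, 2952 passed with no filter on dim probes and 7 with array row as a covariate, and 0 without any 1 mouse. The count without the filter takes in probes near background. The additive error that Feature Extraction estimated per array was 8.12 to 11.2 in the second row and 4.05 to 5.72 in the first. All 5-ASA arrays lay in the second row and most Control arrays in the first. The part of row in this count was not tested. The other erythroid genes stayed at 0 calls throughout. Without Control 1, r in Control was 0.96 for Hbb-b1 with Hba-a1, 0.89 with Alas2 and -0.12 with Slc4a1. Samples of the same replicate number did not deviate together throughout (r of deviations 0.03 to 0.23 between 5-ASA and Control, -0.19 to 0.16 between 5-ASA and Sham, -0.21 to 0.61 between Control and Sham), so the numbers were not taken as pairs. Between different numbers r ran from -0.29 to 0.31, -0.29 to 0.30 and -0.58 to 0.41 in that order. The median was higher for the same number each time, at 0.11, 0.14 and 0.12 against -0.07, -0.03 and -0.04. Arrays of the same number shared a slide, except that Sham 3 was on another slide than 5-ASA 3 and Control 3. Sham 3 had the only negative r of the same number, at -0.19 with 5-ASA 3 and -0.21 with Control 3. The part of slide in these values was not tested. With the replicate block, 5-ASA minus Control was -1.42, -1.49, -1.96 and -1.97, Control minus Sham 0.80, 0.84, 1.28 and 1.68, and 0, 10 and 11 genes passed in 5-ASA minus Control, Control minus Sham and 5-ASA minus Sham. Of 776 values of 22 other named erythroid genes under alternatives, 776 kept their direction and their side of the threshold. Trim10 fell to 0.48 for Control minus Sham and -0.36 for 5-ASA minus Control with normexp, and Ppbp to 0.68. Slc4a1 was near background in 5-ASA, where normexp gave -1.22 against Control. For these dim probes the signal over background limits how far a fold can be read.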
